A study of Mus musculus with 4 samples.

Results

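The THO complex and its partners in mRNA export were followed in the mouse neuroblastoma line Neuro2A, in RNA of the cytoplasm, with and without knockdown of the short rodent noncoding RNA 4.5SH. The genes were the 6 THO subunits Thoc1, Thoc2, Thoc3, Thoc5, Thoc6 and Thoc7 and 4 further export factors, Ddx39b, Sarnp, Nxf1 and Nxt1. They were chosen by name, as all probe sets annotated with 1 gene symbol that was one of these, and make up 10 of the 18193 genes so represented on the array. Between them they had 24 probe sets, of which 21 were bright enough to be tested and 3 were not. Probe sets were matched by Entrez identifier, which kept out 1 probe set of another gene whose symbol is also an old alias of a member.

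There were 2 groups of 2 arrays, which the labels call biological replicates. Cells of the knockdown group were depleted of endogenous 4.5SH and cells of the control group were not, and no other genotype difference is given. Transfection used 30 nM antisense oligonucleotide, and 200 ng of cytoplasmic poly(A)+ RNA went into each labelling, per the labels' protocols. The sources used here do not say which oligonucleotide the control received, so loss of 4.5SH and other effects of transfection cannot be told apart. Separate transfections are not stated either, so the spread behind each p-value is that of these samples and may be technical only. No probe set was named for 4.5SH, so its own level was not analysed here.

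THO assembles on nascent transcripts and, with the RNA helicase encoded by Ddx39b and the adaptor Alyref, forms the transcription-export complex TREX. The helicase loads adaptors onto spliced, capped mRNA, and these hand the mRNA to the receptor dimer Nxf1-Nxt1, which carries it through the nuclear pore. Within THO, Thoc2 is the large scaffold, Thoc1 binds to it, Thoc3 and Thoc6 are WD-repeat proteins, and Thoc5 and Thoc7 pair through coiled coils. The values below are the mRNA levels of these proteins, not their activity, and in bulk RNA of the cytoplasm fewer cells with a transcript and less of it per cell cannot be told apart.

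The arrays differed little in brightness, with median signals of 17.1 to 18.3, but 2% trimmed means were 128 and 132 after knockdown against 149 and 143 in control cells. The Gapdh control probe set for the middle of the transcript read 7561 and 7566 after knockdown against 7613 and 7483 in control cells, and Actb differed by 0.07 ± 0.05 (log2, limma adjusted p = 0.248), with -0.075 under spike-in scaling and a call at 0.13 under quantile scaling. The ratio of 3' to 5' probe set signal, a measure of RNA integrity and labelling, was lower after knockdown both for Actb (2.47 and 2.49 against 2.60 and 2.78) and for Gapdh (0.833 and 0.787 against 0.884 and 0.861). Of 15 markers of neuroblastoma and sympathetic neurons with a probe set 11 were bright enough to be tested, such as Phox2a, Hand2, Gata2, Stmn2 and Prph. Th, Gata3, Nefl and Nefm were not. At their brightest probe sets 3 of the 11 were called lower in the knockdown, Phox2a (-0.23), Gata2 (-0.45) and Stmn2 (-0.17). Chgb (0.33) was called higher and 7 were not called, where 35.2% of all tested genes were lower and 9.79% higher. The summed signal of these markers was 16150.5 and 16346.7 after knockdown against 16672.8 and 16610.6 in control cells. Of the other cell types listed, 2 of 6 fibroblast, 1 of 4 immune and 3 of 4 glial markers with a probe set were tested, and the pan-leukocyte gene Ptprc read 0.3 to 8.1. The immune marker tested was Cd68, a lysosomal protein, which read 338 and 342 after knockdown against 619 and 721 in control cells. Among 5 tested RNAs that are usually retained in the nucleus, Malat1 and Neat1 were lower and Xist and Tug1 higher in the knockdown at their brightest probe sets. Of 4 tested probe sets of Malat1 2 were lower and 1 was higher, and calls were made at 1 of 2 for Neat1, 1 of 3 for Xist and 2 of 3 for Tug1. Neat1 was not called without knockdown replicate 2 or control replicate 1 (-0.51 and -0.67). Its call was also lost after centring on the tested probe sets (-0.59), without the brightness filter (-0.72) and with the mean of its probe sets (-0.27). The brightest of Malat1 read 76.1 and 50.2 after knockdown against 434 and 417 in control cells. That of Xist read 164 and 191 after knockdown against 15.3 and 12.5 in control cells. This Xist probe set reached the brightness needed for testing only through the knockdown arrays. The summed signal of the glial markers was 77.0 and 101.8 after knockdown and 67.5 and 89.8 in control cells, with Sox10 at 28.8 and 25.4 after knockdown against 9.7 and 9.2, and that of the fibroblast markers 111.5 and 117.6 after knockdown and 96.9 and 117.3 in control cells. Sox10 reached the brightness needed for testing only through the knockdown arrays. It was not called without knockdown replicate 1 (0.70) or with spike-in scaling (0.62). The part of these marker and ratio differences in the results below was not tested.

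At gene level 6 of the 10 genes were lower in the knockdown at their brightest probe set, among them 3 of the 6 THO subunits, and the other 4 did not pass the test. At these probe sets the fall was 50.2% of the control signal for Thoc6, 34.0% for Thoc3 and 33.2% for Thoc5. It was between 18.5% and 23.2% for Ddx39b, Sarnp and Nxf1. The test was limma on log2(signal + 16), a scale on which changes of dim probe sets are understated, and a probe set or gene is called here when its p, adjusted over all those tested, is under 0.05. In the same fit 35.2% of all 11804 tested genes were called lower and 9.79% higher. The share called lower was greater among bright probe sets. On the brightest 25% of probe sets, where all 10 genes were tested, 6 were called lower, against 47.9% of all genes tested there. Over probe sets, 10 of the 21 tested were called lower and 2 higher, which is 47.6% and 9.52%, against 25.8% and 9.73% of all 22519 tested probe sets. On the brightest 25%, 10 of 16 member probe sets were called lower, against 42.3% of all there. The median log2 fold change was -0.32 over the 10 genes, -0.16 over all tested genes and -0.20 over the genes of the brightest 25%. Errors of log2 fold changes are standard errors of this fit on 2 against 2 arrays. For members p is adjusted over all tested probe sets, and for other genes over all tested genes. An exact permutation test on 4 arrays cannot go below p = 0.333, so the p-values depend on limma's pooling of variance over probe sets.

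**Figure D1:**
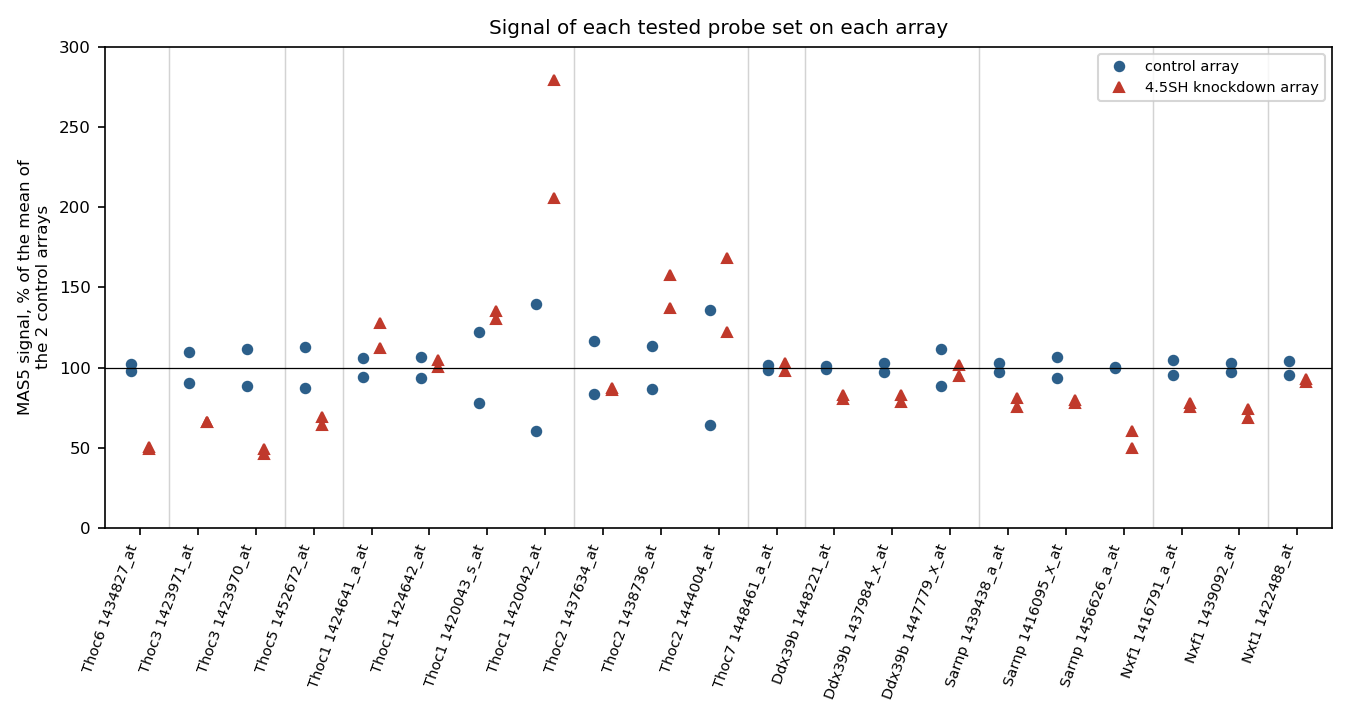
MAS5 signal of the 21 tested probe sets on each array, as a percentage of the mean of the 2 control arrays (circles, control; triangles, knockdown; linear axis from 0). Both knockdown arrays sit at 49.4% and 50.2% for Thoc6 and at 97.9% and 103% for Thoc7.

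Thoc6 had the largest fall of the brightest probe sets. Its single probe set, 1434827_at, read 317 and 322 after knockdown against 656 and 629 in control cells. The knockdown arrays lay close together and far below both control arrays. The log2 fold change was -0.97 ± 0.09 (limma adjusted p = 2.08e-06), a level 50.2% lower (mean signal 319.6 ± 3.68 against 642 ± 18.8, SD, n = 2). Of all tested probe sets, 1.97% had a lower value. The gene lies at chr17:23668618-23673917 (GRCm38.p6), where it overlaps Hcfc1r1 by 310 bases. Hcfc1r1, a regulator of a host cell factor, was at 0.14 ± 0.08 and not called (limma adjusted p = 0.182), though it was called at 0.33 with quantile scaling.

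Thoc3 was lower at both of its probe sets, but not by the same amount. The brighter, 1423971_at, read 289 and 289 after knockdown against 479.5 and 396 in control cells, a log2 fold change of -0.57 ± 0.10 (limma adjusted p = 0.000781). The other, 1423970_at, read 207 and 196 after knockdown against 469.7 and 374 in control cells, a change of -1.003 ± 0.11 (limma adjusted p = 1.80e-05). Both knockdown arrays were below both control arrays at each, and the spread was wider in the control. The second probe set fell by 0.44 ± 0.12 more than the first on the log2 scale. That difference did not pass when adjusted over all pairs of probe sets of 1 gene (limma adjusted p = 0.120).

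Thoc5, which can also contact Nxf1 directly, had 1 probe set, 1452672_at. It read 385 and 416 after knockdown against 676 and 524 in control cells. The control arrays differed from each other by more than the knockdown arrays did, yet both stood above them. The log2 fold change was -0.55 ± 0.11 (limma adjusted p = 0.00130), a level 33.2% lower. Thoc5 lies at chr11:4895283-4928867 and Thoc3 at chr13:54458837-54468840 (GRCm38.p6).

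Thoc1 was not called lower at any tested probe set. Its probe sets 1424641_a_at and 1424642_at were about equally bright. The first read 526 and 598 after knockdown against 439.6 and 496.5 in control cells, a log2 fold change of 0.26 ± 0.09 that passed narrowly (limma adjusted p = 0.0485). The second read 509 and 530.1 after knockdown against 541 and 472 in control cells, with overlapping groups and a change of 0.04 ± 0.09 (limma adjusted p = 0.776). The dim probe set 1420042_at, which reached the brightness needed for testing only through the knockdown arrays, read 24.2 and 32.8 after knockdown against 16.4 and 7.1 in control cells. Its change of 0.70 ± 0.25 also passed narrowly (limma adjusted p = 0.0459). A further dim probe set, 1420043_s_at, was at 0.31 ± 0.20 and did not pass, and 1431044_at read 4.5 to 7.4 and was not tested. Neither call was firm. That of 1424641_a_at was lost without knockdown replicate 2 (0.17) or control replicate 1 (0.17), and that of 1420042_at without knockdown replicate 1 (0.83), knockdown replicate 2 (0.56) or control replicate 2 (0.45). Both were lost with spike-in scaling, at 0.11 and 0.55, and kept with quantile scaling, at 0.44 and 0.73. The mean of the 4 tested probe sets of Thoc1 was called higher at 0.33 (limma adjusted p = 0.0238), but it includes 1420042_at. The loci of Thoc1 and Usp14, a deubiquitinase of the proteasome, overlap by 1870 bases, and Usp14 was called higher at 0.86 ± 0.08 (limma adjusted p = 3.58e-07).

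Thoc2 was measured at 3 probe sets that went different ways and did not pass. The brightest, 1437634_at, read 119 and 121 after knockdown against 161 and 116 in control cells, a change of -0.17 ± 0.15 (limma adjusted p = 0.419). A single high control array gave this difference, and without control replicate 1 it was 0.05. The dimmer 1438736_at read 61.2 and 53.1 after knockdown against 33.6 and 44 in control cells, with both knockdown arrays above, and was at 0.42 ± 0.19 (limma adjusted p = 0.0941). At 1444004_at the groups overlapped, with 33.4 and 46 after knockdown against 37.2 and 17.5 in control cells. Without control replicate 2 Thoc2 was called lower at gene level, at -0.38.

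Thoc7 did not pass the test. Its bright probe set 1448461_a_at read 1417 and 1487 after knockdown against 1472 and 1423 in control cells, so the control arrays lay between the knockdown arrays. The log2 fold change was 0.00 ± 0.06, with a 95% interval from -0.13 to 0.14 on the deposited scale. With quantile scaling it was called higher at 0.17. The second probe set, 1453621_at, read 0.4 to 7.4 and was not tested. The 95% intervals of Thoc6 (-1.15 to -0.79), Thoc3 (-0.79 to -0.34 at its brighter probe set) and Thoc5 (-0.79 to -0.32) lay below that of Thoc7, though the difference between subunits was not tested.

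**Figure D2:**
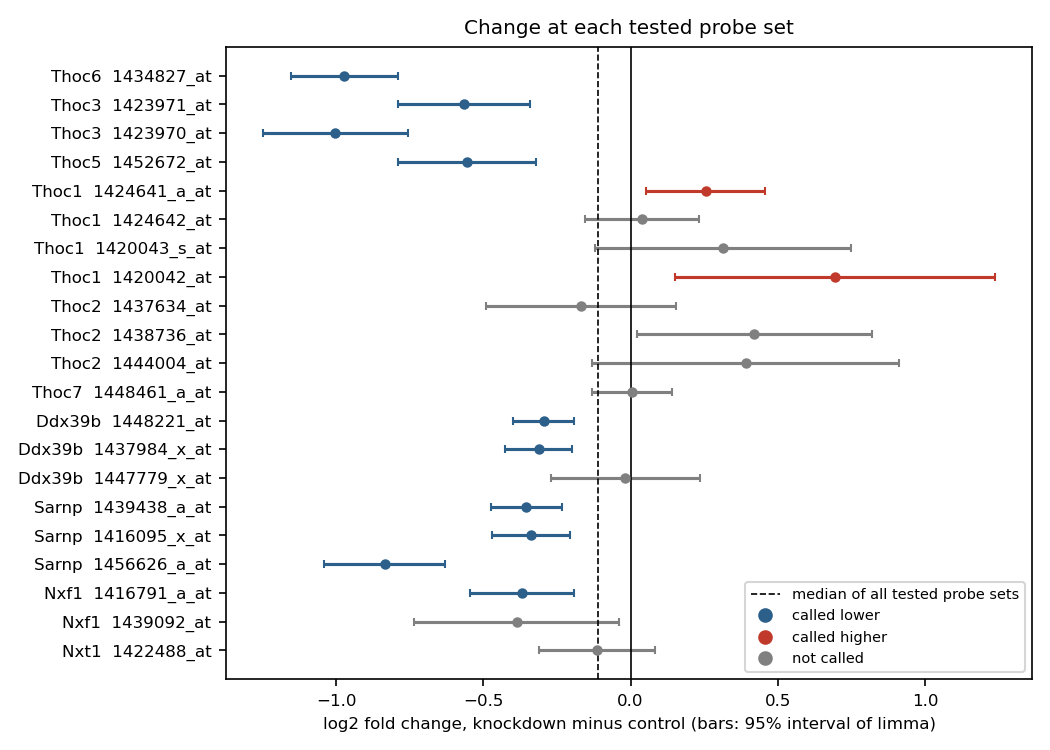
Log2 fold change (knockdown minus control) of the 21 tested probe sets with the 95% interval of the limma fit; blue marks probe sets called lower, red called higher and grey not called, and the dashed line is the median of all tested probe sets at -0.11. All tested probe sets of Thoc6, Thoc3, Thoc5 and Sarnp are blue, while the red ones both belong to Thoc1.

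Ddx39b, the ATP-dependent helicase that drives TREX assembly, was lower at both of its bright probe sets. At 1448221_at the signal was 3581 and 3683 after knockdown against 4421 and 4495 in control cells. These groups were far apart relative to their spread, and the log2 fold change was -0.29 ± 0.05 (limma adjusted p = 0.000317). At 1437984_x_at it was 3127 and 3299 against 4108 and 3879.5, a change of -0.31 ± 0.05 (limma adjusted p = 0.000437). A dimmer probe set, 1447779_x_at, read 262 and 281 after knockdown against 309 and 244 in control cells and was at -0.02 ± 0.12 (limma adjusted p = 0.924). Its value turned to 0.17 with quantile scaling. The probe set 1437367_at read 0.6 to 1.5 and was not tested. Names ending in _x_at mark probe sets that can bind related transcripts, and Ddx39b has a near-identical paralog, Ddx39a.

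Sarnp, a small TREX component that binds the helicase, was lower at all 3 probe sets. At 1439438_a_at the signal was 2565 and 2742 after knockdown against 3489 and 3299.8 in control cells, a log2 fold change of -0.35 ± 0.06 (limma adjusted p = 0.000251). At 1416095_x_at it was 2586 and 2628 against 3518 and 3097, a change of -0.34 ± 0.06 (limma adjusted p = 0.000767). The third, 1456626_a_at, fell further, with 349.8 and 422 after knockdown against 700 and 697 in control cells, a change of -0.84 ± 0.10 (limma adjusted p = 1.74e-05). The groups did not overlap at any of the 3. The third fell by 0.48 ± 0.14 more than the brightest, which did not pass (limma adjusted p = 0.139).

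The export receptor Nxf1 was lower and its cofactor Nxt1 did not pass. At 1416791_a_at Nxf1 read 523 and 540.2 after knockdown against 726 and 659 in control cells, a log2 fold change of -0.37 ± 0.08 (limma adjusted p = 0.00304). The dim probe set 1439092_at read 49.4 and 53.2 against 73.9 and 70, with a change of the same size, -0.39 ± 0.16, that did not pass (limma adjusted p = 0.0796). At both, the knockdown arrays were below the control arrays, but with quantile scaling the brighter was at -0.17 and not called (limma adjusted p = 0.0765). Nxt1 had 1 probe set, 1422488_at, which read 374 and 366 after knockdown against 420 and 385 in control cells. The groups did not overlap there either, but by a small margin. Its change of -0.12 ± 0.09 did not pass (limma adjusted p = 0.362), with a 95% interval from -0.31 to 0.08, and with quantile scaling it was 0.060.

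Without any model, both knockdown arrays were below both control arrays at 12 of the 21 tested probe sets (57.1%) and above them at 4 (19.0%). Of all tested probe sets 44.3% lay below in this way and 22.6% above. Of the 12 tested probe sets of the THO subunits 4 were called lower, 6 were not called, and 2, both of Thoc1 and neither firm, were called higher. Of the 9 of Ddx39b, Sarnp, Nxf1 and Nxt1, 6 were called lower and 3 were not called. Over all tested probe sets 25.8% were called lower and 9.73% higher, and on the brightest 25% 42.3% and 13.9%. Of the genes, 6 had more than 1 tested probe set, which gave 11 pairs with the brightest one. None of these pairs was called different by limma, and 0.0119% of all 8433 such pairs were called. The unadjusted limma p was under 0.05 for 4 of the 11, and for 2006 of all 8433 pairs. With the variance prior set by the level of the dimmer probe set, an alternative chosen after seeing the data, the pairs of Thoc3 (limma adjusted p = 0.0323) and Sarnp (limma adjusted p = 0.0120) were called, 2 of 11 where 10.7% of all pairs were called.

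The promoters of Thoc6, Thoc5 and Sarnp are shown because these are the genes with 1 RefSeq promoter window whose brightest probe sets fell most. Each is the 250 bases before the transcript start used for the window, in the direction of transcription, from RefSeq (GRCm38.p6): chr17:23673878-23674127 on the minus strand for Thoc6, chr11:4895093-4895342 on the plus strand for Thoc5 and chr10:128821514-128821763 on the plus strand for Sarnp. The windows of Thoc6 and Thoc5 overlap the gene coordinates given above, so the bases nearest that start lie inside the annotated gene. Capitals mark matches, on either strand, to the CCAAT box (CCAAT), the GC box (GGGCGG), the TATA box (TATAAA), the core ETS factor site (CCGGAAGT), the E-box (CACGTG) and the cyclic AMP response element (TGACGTCA).
Thoc6: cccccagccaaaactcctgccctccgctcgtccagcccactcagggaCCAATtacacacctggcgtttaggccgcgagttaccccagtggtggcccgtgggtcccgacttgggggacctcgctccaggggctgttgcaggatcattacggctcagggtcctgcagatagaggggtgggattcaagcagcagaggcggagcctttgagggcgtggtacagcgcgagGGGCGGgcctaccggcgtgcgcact
Thoc5: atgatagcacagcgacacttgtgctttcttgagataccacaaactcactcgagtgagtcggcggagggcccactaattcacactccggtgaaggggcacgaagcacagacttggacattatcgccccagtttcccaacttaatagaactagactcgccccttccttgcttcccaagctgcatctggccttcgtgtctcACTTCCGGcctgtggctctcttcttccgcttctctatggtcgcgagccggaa
Sarnp: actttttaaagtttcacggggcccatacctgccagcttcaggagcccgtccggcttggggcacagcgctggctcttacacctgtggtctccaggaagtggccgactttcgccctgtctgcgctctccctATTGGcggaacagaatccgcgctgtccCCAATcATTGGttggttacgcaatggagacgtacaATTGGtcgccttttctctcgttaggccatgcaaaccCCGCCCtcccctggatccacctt

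The Thoc6 window held a CCAAT box 203 bases and a GC box 25 bases before the start used for the window, and 65.6% of its bases were G or C. The Thoc5 window held 1 ETS core, 52 bases before its start, and neither of the other boxes. That GC box of Thoc6 and the ETS core of Thoc5 lie in the part of the window that overlaps the annotated gene. The Sarnp window held 4 CCAAT boxes and 1 GC box. So these 3 had no motif in common. Windows were found for 8 of the genes other than Thoc1, counting a gene with any of its windows, and Thoc3 was not among them. A GC box stood in 6 of them, a CCAAT box in 3 and an ETS core in 1, and none held a TATA box, an E-box or the cyclic AMP response element. Of all 32851 windows of this length 32.7% held a GC box, 33.8% a CCAAT box, 2.88% an ETS core, 12.4% a TATA box, 6.02% an E-box and 1.55% the cyclic AMP response element. Thoc7, which was not called, had 2 windows, one of them with 6 GC boxes. A match describes the letters alone.

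The size and count of the falls depended on how the arrays were scaled, because scaling shifts every gene. Over all tested genes the median was -0.16 (log2) on the deposited values, -0.31 after centring on the hybridization spike-in probe sets, -0.14 and -0.03 after centring on all and on the tested probe sets, and -0.04 with quantile scaling. Thoc6 was at -1.11, -0.95, -0.84 and -0.78 in these 4 alternatives and was called in each. Thoc3 at its brighter probe set was between -0.71 and -0.38 and Thoc5 between -0.70 and -0.38, also called in each. With quantile scaling 5 of the 10 genes were called lower and 2 higher, Thoc1 and Thoc7, against 22.6% and 17.7% of all tested genes. After centring on the tested probe sets 6 were called lower against 24.2% of all, and with spike-in scaling 6 against 46.1%. On the deposited values 49.6% of all tested genes lay lower than Thoc2, 55.3% lower than Nxt1, 68.0% lower than Thoc7 and 71.0% lower than Thoc1. For the genes called lower this share was 36.0% for Ddx39b, 30.3% for Sarnp and 28.8% for Nxf1. It was 15.2% for Thoc5, 14.4% for Thoc3 and 2.63% for Thoc6.

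**Figure D3:**
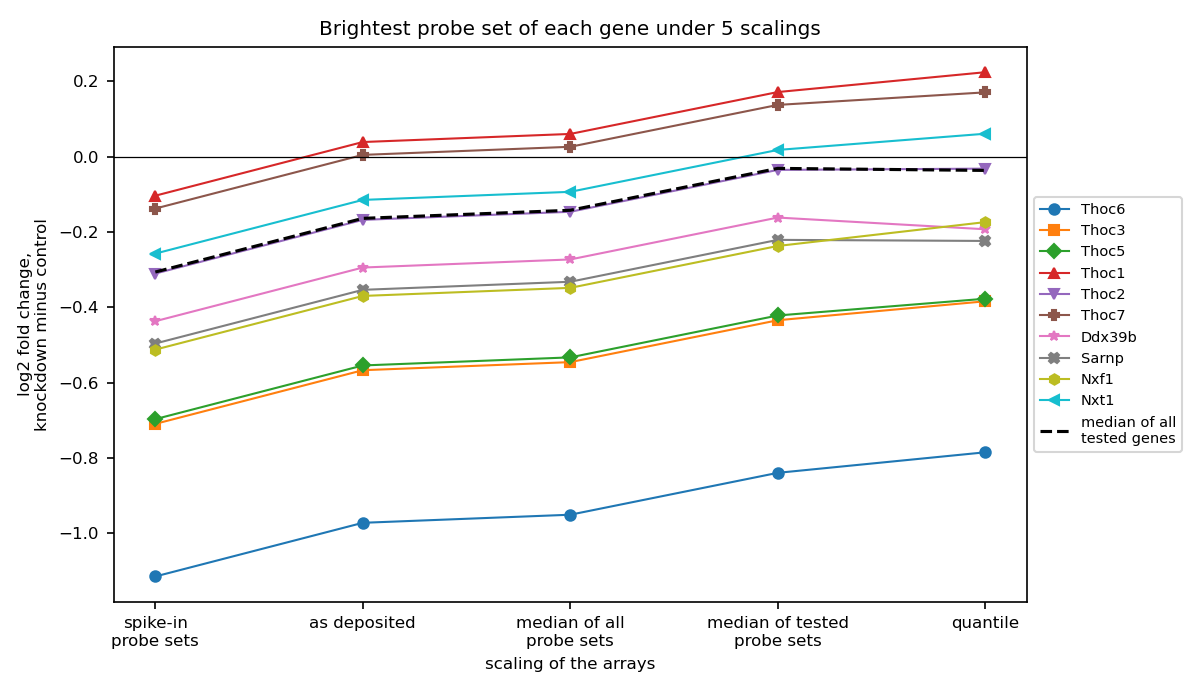
Log2 fold change (knockdown minus control) of the brightest probe set of each gene under 5 scalings of the arrays; the dashed line is the median of all 11804 tested genes. The lines run nearly parallel, with Thoc6 lowest at -1.11 to -0.78 and Thoc1 highest at -0.10 to 0.22.

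In all, 5 lists of other mRNA export genes, chosen with earlier results of these data known, were set beside these genes. Of their 59 genes 49 were represented by 1-symbol probe sets and 47 could be tested. At gene level 24 were called lower, 7 higher and 16 were not called, with a median log2 fold change of -0.20, where 35.2% of all tested genes were lower and 9.79% higher. On the brightest 25% of probe sets 46 of them were tested, with 24 lower and 6 higher. Of all genes tested there 47.9% were lower and 12.6% higher, with a median of -0.20. With quantile scaling 16 were lower and 13 higher, against 22.6% and 17.7% of all. With spike-in scaling 29 were lower and 3 higher, against 46.1% and 4.44% of all.

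Among the direct partners of TREX, its adaptors and the paralogs of its members, 3 of 9 were called lower and 3 higher. Of all tested genes 35.2% were called lower and 9.79% higher. Alyref, the adaptor that THO and the helicase load onto mRNA, read 522 and 611 after knockdown against 866 and 825 in control cells, without overlap. Its change was -0.57 ± 0.08 (limma adjusted p = 3.29e-05), with both tested probe sets lower. The helicase paralog Ddx39a was at -0.26 ± 0.04 at its brightest probe set (limma adjusted p = 0.000129), but 1 of its 5 tested probe sets was higher and their mean was 0.08. Nxf7, of the Nxf1 family, was called at -0.39, but not without knockdown replicate 2 (-0.18) or control replicate 1 (-0.26), nor with quantile scaling (-0.26). The higher ones, named after their values were seen, were Nxt2, the paralog of Nxt1, the adaptor Fyttd1 and the Nxf1 relative Nxf3. Nxt2 read 83 and 96.7 after knockdown against 36.2 and 39.7 in control cells, a change of 0.97 ± 0.17 (limma adjusted p = 0.000165). Fyttd1 was at 0.52 ± 0.11, with 1 of its 4 tested probe sets called, and the mean of the 4, 0.23, was not called. Nxf3 was at 0.21 ± 0.06 and was not called with spike-in scaling (0.068) or without knockdown replicate 2 (0.15).

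Of 8 tested genes of the cap-binding and exon junction complexes, which mark processed mRNA, 5 were called lower and 1 higher. The shares of all tested genes were 35.2% lower and 9.79% higher. Srrt, which links the cap-binding complex to RNA processing, read 736 and 759 after knockdown against 1489 and 1446 in control cells. Its change of -0.96 ± 0.07 (limma adjusted p = 1.26e-08) was about that of Thoc6. Casc3, an exon junction protein, was at -0.65 ± 0.10, and the cap-binding subunit Ncbp2 at 0.45 ± 0.10, called at 1 of its 3 tested probe sets. When the _x_at and _s_at probe sets were dropped, Ncbp2 was at -0.08, and the mean of its probe sets, 0.19, was not called. In TREX-2, the complex that ties transcription to the pore, 4 of 6 were lower and 1 higher. Pcid2 was at -0.83 ± 0.09 and Sem1 at -0.38 ± 0.05, each with both tested probe sets lower, and the centrin Cetn2 was at 0.26 ± 0.09, called at 1 of its 2 tested probe sets. The call of Cetn2 was lost when the _x_at and _s_at probe sets were dropped (0.0079), with spike-in scaling (0.12), with the mean of its probe sets (0.13), without the intensity trend, and without knockdown replicate 2 (0.21) or control replicate 1 (0.24).

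On the pore side, where mRNA is remodelled and released, 8 of 10 were called lower and 1 higher, with a median of -0.50. Over all tested genes 35.2% were called lower and 9.79% higher, with a median of -0.16. On the brightest 25% of probe sets these shares were 47.9% and 12.6%. The pore protein Nup214 was at -0.70 ± 0.08, with 1 of 2 tested probe sets lower. Pabpn1 and Nup153 were at -0.63 ± 0.05 and 0.39 ± 0.09, with 2 of 4 and 1 of 2 tested probe sets called. Nup153 was not called with spike-in scaling (0.25) or with the mean of its probe sets (0.24). Of 14 other export receptors and factors, most of them serving proteins and other RNAs, 4 were lower, 1 was higher and 9 were not called, with a median of -0.02. Rcc1, the exchange factor for Ran, was at -0.74 ± 0.08 and Xpo5, the exporter of microRNA precursors, at -0.68 ± 0.07, while Ybx1, an mRNA-packaging protein, was at 0.13 ± 0.04. With spike-in scaling Ybx1 turned to -0.01, and its call was also lost without knockdown replicate 1 (0.11), knockdown replicate 2 (0.15) or control replicate 2 (0.10). Whether these lists differ from each other was not tested.

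**Figure D4:**
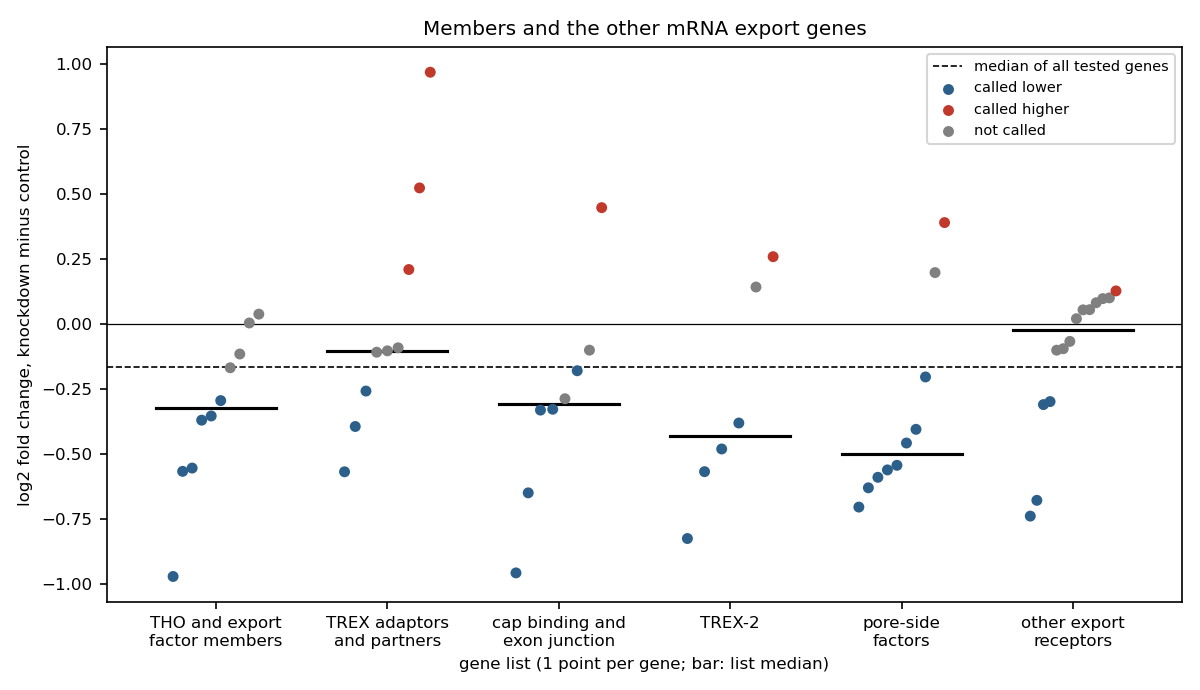
Log2 fold change (knockdown minus control) of the brightest probe set of each tested gene, by list, coloured by call (blue lower, red higher, grey not called); bars are list medians and the dashed line is the median of all tested genes at -0.16. The pore-side list has the lowest median at -0.50 and the list of other export receptors the highest at -0.02.

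The 4-array pattern of Thoc6 was compared with that of every other tested gene outside these lists, by the root mean square distance of log2 values centred on each gene's mean. The nearest were Selenof, a selenoprotein of the endoplasmic reticulum (0.0131), the heparin-binding growth factor Mdk (0.0135) and the syntenin relative Sdcbp2 (0.0144). Selenof read 2075 and 2161 after knockdown against 4228 and 4078 in control cells. Counted over all tested genes other than Thoc6, those of the lists included, 338 lay within a distance of 0.1, 2.86% of all tested.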

How the data were processed

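Neuro2A cytoplasmic RNA was measured on 4 Affymetrix arrays, 2 per group. Each deposited value is an intensity, the linear signal of a probe set that the authors computed with MAS5, per the submitters' processing notes. The software version and scaling target are not stated there. Of 45037 probe sets other than controls, 34945 carried 1 gene symbol, updated through Entrez identifiers to RefSeq for 34741. Log2(signal + 16) was taken without further scaling. Probe sets with a mean log2 value at or above the median, a signal of about 16.4, were tested, and a gene was represented by its brightest one. Limma 3.58.1 in R 4.3.3 was used (lmFit, eBayes with an intensity trend, two-sided, Benjamini-Hochberg adjustment over all probe sets, genes or pairs, threshold 0.05). The alternatives are in the closing section. On data simulated for 22519 probe sets, limma called 86 of 100 with a true log2 change of 1, 25 of 100 with a change of 0.5, and 13 of the 22319 left unchanged. Far fewer probe sets were changed there than the 25.8% called lower and 9.73% called higher in the data. The adjustment depends on that share, so these rates need not hold for the data. Python 3.11.15 and matplotlib 3.10.9 drew the figures. The genes, lists and tests were chosen with earlier results of these data known. By rule, the text names all 10 genes, from each list the 2 called genes with the smallest adjusted p and those called against the list's direction, and the 3 genes nearest to Thoc6. Replicate numbers were not taken to pair the arrays: deviations of same-numbered arrays correlated at 0.00171 across tested probe sets.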

Additional observations from a re-analysis of the deposited data

How the results depend on the processing

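Thoc6, both probe sets of Thoc3 and probe set 1456626_a_at of Sarnp kept direction and call under all 15 alternatives. Without the intensity trend 5 member probe sets were called, all lower (17.1% of all probe sets were lower). Lower calls lost there were those of Thoc5, both bright probe sets of Ddx39b, the 2 brighter of Sarnp and the brighter of Nxf1. Their limma adjusted p lay between 0.0549 and 0.0788. The dim probe set of Nxf1 was called lower there (limma adjusted p = 0.0466). At gene level the same number of member genes, 6, was called lower, and 20 pathway genes were called, 4 of them higher. Of all tested genes 27.5% were lower and 7.03% higher in that setting. Member probe sets called higher numbered 4 of 21 with quantile scaling (17.0% of all probe sets), 1 of 16 on the brightest 25% (13.9%), 0 with a pseudocount of 1, spike-in scaling, no filter or no intensity trend, and 0 to 1 when an array was left out. Member genes called higher numbered 2 with quantile scaling (17.7% of all genes) and 1, Thoc1, with the mean of a gene's probe sets. Pathway genes called higher numbered 13 with quantile scaling (17.7% of all), 12 after centring on the tested probe sets (17.0%), 3 with spike-in scaling (4.44%), 4 without _x_at and _s_at probe sets or with gene means, and 4 to 7 when an array was left out. Within-gene differences called were 1 of 11 with a pseudocount of 64 (12.8% of all pairs), 2 of 6 on the brightest 25% (12.1%) and 2 of 11 with the trend on the dimmer probe set (10.7%).

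Values not called turned sign as follows: Actb to -0.075 (spike-in) and -0.013 (gene mean); Hcfc1r1 to -0.0024 (spike-in); Nxt1 to 0.060 (quantile) and 0.017 (tested probe sets); 1424642_at of Thoc1 to -0.10 (spike-in), with a range of -0.057 to 0.13 when an array was left out; 1447779_x_at of Ddx39b to 0.17 (quantile), 0.0035 (all probe sets) and 0.115 (tested probe sets), and -0.18 to 0.14 when an array was left out; Thoc7 to -0.14 (spike-in), and -0.030 to 0.039; 1437634_at of Thoc2 to -0.38 to 0.046 and its gene mean to 0.21. Of called values, Ybx1 turned to -0.014 (spike-in), Ddx39a to 0.084 (gene mean) and Ncbp2 to -0.079 (without _x_at and _s_at). The causes were not tested. With the replicate block 12 member probe sets and 6 member genes were called, as without it, and 32 pathway genes against 31. An array left alone in its group was assumed to vary like the other group. The number of arrays limits the precision, and dim probe sets, as of Thoc1 and Thoc2, are the least certain.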
